A study of Homo sapiens with 8 samples.

Results

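The ZRSR2 knockout was examined in the first of the 2 experiments on SET-2 cells, human megakaryoblasts established from a leukemia that followed essential thrombocythemia and known to carry an activating JAK2 mutation. The libraries were chosen by the experiment number, guide number and genotype in their labels: 4 of the 8 libraries belong to experiment 1. The knockout libraries are 1 culture given ZRSR2 guide 1 and 1 culture given ZRSR2 guide 2, and the control libraries are 1 culture for each of 2 non-targeting guides. All 4 carried a guide RNA on a lentiviral vector with a GFP marker, were grown in the same medium and share the JAK2 background. The labels say neither whether cells were sorted or cloned, nor what share of cells was edited. The protocol ties day 20 after transduction to biological replicate 1. That this replicate is experiment 1 is an assumption. Each guide is 1 library per experiment, so guide and culture cannot be told apart. The p-values measure only the spread between single cultures, those of experiment 2 included where all 8 libraries were fitted.

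ZRSR2 is a zinc finger RNA-binding protein of the spliceosome. It helps the splicing machinery find the 3′ end of minor introns, a rare class of introns in genes whose other introns are of the common kind, and its loss in myeloid neoplasms leads to retention of such introns. Gene counts show how much RNA a gene has, not how its introns were spliced.

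The guide sequences, written 5′ to 3′, are shown because they are what distinguishes the knockout from the control cultures. The capitals mark the last 3 bases of each ZRSR2 guide, next to the PAM, and the cut is taken to lie just before them.

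ZRSR2 guide 1: tgacgtttcccgagaaaCCA
ZRSR2 guide 2: acagttcctagacttctATG
non-targeting guide 1: gacggaggctaagcgtcgcaa
non-targeting guide 2: gcgcttccgcggcccgttcaa

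On GRCh38 with the GENCODE 29 annotation, guide 1 matched the plus strand at chrX:15790515-15790534. This is coding sequence of exon 1, of 11 exons, and ends 2 bases short of the exon's end. Its cut falls in codon 12 of 482. Guide 2 matched chrX:15815821-15815840, also on the plus strand, in coding sequence of exon 8. It is followed by AGG, and its cut falls in codon 240. Each matched transcripts of ZRSR2 alone, and the non-targeting guides matched 0 genes. A further ZRSR2 guide of the series design was not analysed here.

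Expected counts per library of experiment 1 summed to between 31106042 and 46755265, and both knockout totals were above both control totals. A floor of 3 counts corresponded to 0.0642 to 0.0964 CPM (counts per 1000000 counts of a library), and 14898 genes were tested. The cells had the markers of their labelled type: ITGA2B, the platelet integrin, was at 2085 to 2294 CPM, and GATA1, the master factor of the lineage, at 241 to 253 CPM. PF4, a platelet granule chemokine of mature megakaryocytes, was at 1.46 to 3.03 CPM. For other cell types, 6 lists (T and NK cells, B cells, monocytes, granulocytes, fibroblasts and endothelium, epithelium) held 56 markers. Of these, 35 were untested or stayed under 1 CPM, 8 of them with no count in experiment 1. Of the 30 tested, 0 passed a test. Some were expressed: tested monocyte markers summed to 591 to 656 CPM per library and T and NK markers to 222 to 254 CPM. Granulocyte markers summed to 41.0 to 44.9 CPM. Guides 1 and 2 against ZRSR2 differed by a median of 0.13 on the log2 scale over genes, and the 2 controls by 0.08. In the same pairs, 296 and 187 genes differed at least 2-fold. In experiment 2 the medians were 0.18 between the ZRSR2 guides and 0.24 between the controls. Tests below that use all 8 libraries pool the spread of both experiments.

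ZRSR2 itself (chromosome X, 15790472 to 15823260) was lower in both knockout cultures. It was at 29.4 CPM with guide 1 and 22.9 CPM with guide 2, against 37.9 and 39.2 CPM in the controls, so that guide 1 left 76.3% and guide 2 left 59.4% of the control mean. No knockout library overlapped a control. Its log2 fold change was −0.56 (SE 0.18), with an unadjusted p of 0.0106 and an adjusted p of 1.00 in edgeR. DESeq2 on the 4 libraries of experiment 1 alone put it past the threshold, at an adjusted p of 0.0160, the lowest over the settings tried, which ran up to 1.00. Without the guide 2 library the difference was −0.38, and without the guide 1 library it was −0.75. In these bulk cultures fewer cells with ZRSR2 RNA and less RNA per cell cannot be told apart, and RNA that carries a small insertion or deletion is still counted. In experiment 2 the gene differed by −0.78, also with guide 2 the lower.

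Knockout was compared with non-targeting to ask which genes move with ZRSR2 loss. The test was edgeR's quasi-likelihood test with Benjamini-Hochberg adjustment, which borrows the spread of all 8 libraries. It called 0 genes (0%), with an adjusted p of 1.00 for every gene. At an unadjusted p under 0.05 there were 270 genes (1.81%), 134 higher and 136 lower, where 745 are due if no gene differs. DESeq2 on the same design called 5 genes (0.0336%): TGM1, IFIT2, IL1R1 and IGFBP5 rose and TNS4 fell. On the 4 libraries of experiment 1 alone, DESeq2 called 25 genes (0.185%), 10 higher and 15 lower. An exact permutation test of 2 libraries against 2 cannot go below a p of 0.333, so no single gene was tested that way.

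The 5 genes called by DESeq2 belong to different processes. TGM1 (chromosome 14, 24249114 to 24264432) encodes transglutaminase, an enzyme that cross-links proteins of the cornified envelope. It was at 5.48 and 8.52 CPM in knockout guides 1 and 2 and at 1.84 and 2.10 CPM in controls 1 and 2. Guide 1 was thus 2.77-fold and guide 2 4.31-fold above the control mean, on counts of 57 to 402. The log2 fold change was 1.84 (SE 0.44), and adjusted p-values ran from 6.83e-06 (DESeq2, experiment 1 alone) to 1.00 over the settings tried, with 0.00471 in DESeq2 on all libraries. In experiment 2 TGM1 was at 4.82 and 11.4 CPM against 2.54 and 1.73 CPM, a difference of 1.86.

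IFIT2 (chromosome 10, 89283694 to 89309276), an interferon-induced inhibitor of translation, was at 14.9 and 17.5 CPM with the knockout guides. Its controls were at 8.996 and 8.39 CPM, below both and close together. The log2 fold change was 0.90 (SE 0.15), the smallest unadjusted p of the genes named here at 8.07e-05, with adjusted p-values from 2.20e-04 to 1.00 over the settings (0.00286 in DESeq2). The 2 control libraries of experiment 2 were higher, at 12.3 and 13.4 CPM, beside 14.1 and 14.6 CPM in the knockouts, and the difference there was 0.16.

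IL1R1 (chromosome 2, 102064544 to 102179874) encodes the signalling receptor for interleukin-1. It was at 14.5 and 21.0 CPM with guides 1 and 2, and controls 1 and 2 were at 9.16 and 9.82 CPM. On the log2 scale knockout minus control was 0.91, with an SE of 0.19. Its adjusted p-values ran from 0.00177 to 1.00, with 0.00524 in DESeq2 on all libraries. In experiment 2 all 4 libraries were higher, and the knockouts, at 38.9 and 31.9 CPM, overlapped the controls, at 42.2 and 38.5 CPM.

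IGFBP5 (chromosome 2, 216672105 to 216695525), a secreted binding protein of insulin-like growth factors, was at 107 and 170 CPM against 81.0 and 77.1 CPM. Guide 2 was 2.15-fold and guide 1 1.36-fold above the control mean. The log2 fold change was 0.81 (SE 0.17). DESeq2 on all libraries gave an adjusted p of 0.00542 and DESeq2 on experiment 1 alone 0.878. Without the guide 1 library the difference was 1.107, past edgeR's threshold at an adjusted p of 0.0399, and without the guide 2 library it was 0.45. The guides had the opposite order in experiment 2, with IGFBP5 at 309 and 274 CPM against 237 and 223 CPM, a difference of 0.34.

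TNS4 (chromosome 17, 40475828 to 40501597) encodes a tensin, a focal adhesion protein that lacks the actin-binding part of its relatives. It fell from 20.8 and 21.0 CPM in the controls to 12.2 CPM with guide 1 and 7.06 CPM with guide 2. The log2 fold change was −1.14 (SE 0.27), with adjusted p-values from 1.15e-04 to 1.00 (0.00522 in DESeq2). In experiment 2 its difference was −1.05, again without overlap. Over 28 tested tensin and focal adhesion genes, TNS4 included, log2 fold changes ran from −1.14 to 0.87 with a median of −0.02, and over 15 insulin-like growth factor axis genes, IGFBP5 included, from −0.50 to 0.81 with a median of 0.05.

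**Figure D1:**
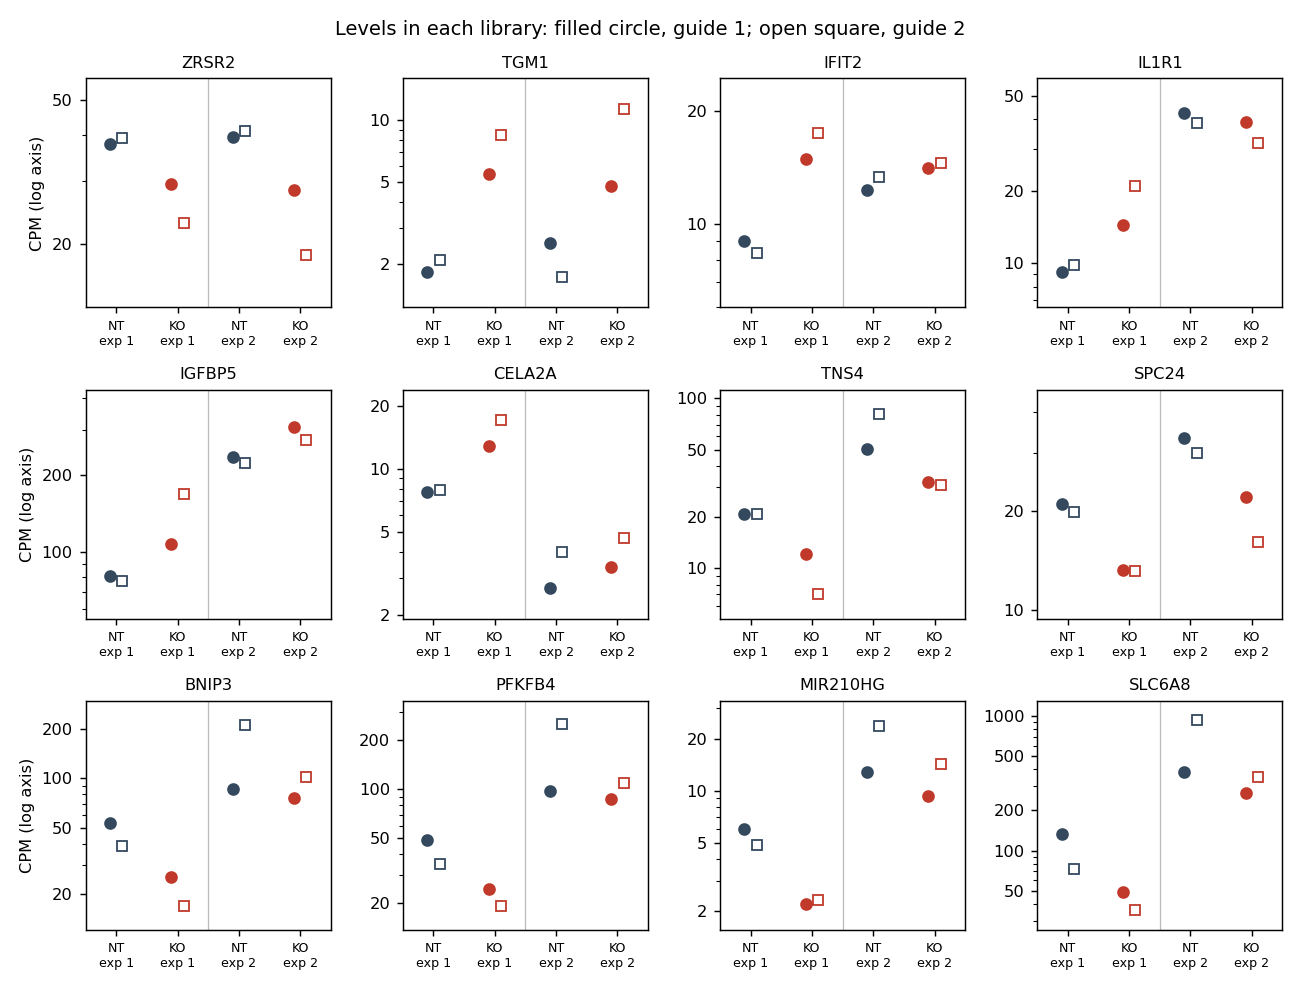
CPM of 12 genes in every library on a log axis, with non-targeting (NT, dark) and knockout (KO, red) libraries of both experiments; circles are guide 1 and squares guide 2. In experiment 1 the 2 red points of each gene lie outside the 2 dark ones, as for TGM1 at 5.48 and 8.52 against 1.84 and 2.10 CPM.

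The knockout effect was set against that of experiment 2 with a test of the difference between them. It called 0 genes in edgeR (0%), with 222 (1.49%) at an unadjusted p under 0.05, and 0 in DESeq2. IL1R1 had an unadjusted p of 0.00115 and IFIT2 of 0.00385 for that difference. Both had an adjusted p of 1.00 in edgeR, and TGM1 and TNS4 had unadjusted values of 0.973 and 0.801.

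Genes that moved in both guides were then listed by a fixed rule on the levels, with no test. The rule asked for a mean of at least 1 CPM over the 4 libraries, each knockout library at least 1.5-fold from the mean of the 2 controls, and no overlap. Both guides are set against the same 2 controls, so the count is a description. It held for 46 genes, 19 higher (0.128%) and 27 lower (0.181%). Most were low: the mean of the 4 libraries was under 5 CPM in 16 of the 19 and 17 of the 27. Just inside the limit were GPNMB, whose nearer guide was 1.51-fold higher, and KCNH4, 1.51-fold lower. LINC00654 and CACNG6 fell just outside, at 1.496-fold and 1.498-fold. Guide 2 was farther from the controls than guide 1 in 12 of the 19 and 19 of the 27. The count was 7 where each guide had to differ 2-fold and 13 at a mean of at least 5 CPM. Single libraries bear on it: without control 2 it was 80, and by guide 1 alone 151 genes or by guide 2 alone 454 genes met the rule.

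Among the 19 higher genes, beside IFIT2, IL1R1 and TGM1, were CELA2A, PNLIP and NUPR1. CELA2A, a pancreatic elastase, was at 12.8 and 17.2 CPM with the knockout guides and at 7.77 and 7.90 CPM in the controls. Its log2 fold change was 0.95 (SE 0.22), and DESeq2 on experiment 1 alone called it at an adjusted p of 7.09e-04. CELA2B, its near copy, is not among the 19. It was at 9.94 and 15.7 against 6.73 and 7.14 CPM and was called in the same fit at 0.0324. Reads can be shared between these neighbouring copies, so they are not independent. PNLIP, pancreatic lipase, was at 1.57 and 3.39 CPM against 0.874 and 0.518 CPM, on counts of 17 to 160. NUPR1, a stress-induced nuclear protein first found in pancreas, was at 1.15 and 3.14 CPM against 0.615 and 0.671 CPM. In PNLIP and NUPR1, guide 2 was more than 4-fold above the control mean (4.87-fold and 4.88-fold) and guide 1 nearer to it, at 2.26-fold and 1.79-fold. In experiment 2 PNLIP was at 0.0570 to 0.220 CPM in all 4 libraries, too low to compare, and the knockout libraries of CELA2A and NUPR1 overlapped the controls there.

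The other higher genes named by smallest p had means under 5 CPM. GPC6, a cell-surface heparan sulfate proteoglycan, was at 2.84 and 3.31 CPM against 1.75 and 1.74 CPM. GPR158, an orphan receptor, was at 2.44 and 1.91 against 1.29 and 1.16 CPM. The long noncoding RNA LINC-PINT was at 1.49 and 1.86 against 0.874 and 0.854 CPM. For TFPI2, an inhibitor of serine proteases, the values were 1.26 and 1.53 against 0.583 and 0.945 CPM. SETBP1, a nuclear protein mutated in myeloid neoplasms, was at 2.19 and 2.23 against 1.46 and 1.31 CPM. PTGER4, a prostaglandin E2 receptor, was at 1.99 CPM with both guides, against 1.23 and 1.403 CPM. None of these 6 was called in any DESeq2 fit.

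The 27 lower genes included the DESeq2 call TNS4 and the kinetochore gene SPC24. SPC24 (chromosome 19, 11131520 to 11155808), a part of the NDC80 complex that ties chromosomes to spindle microtubules, was at 13.2 CPM with each guide, against 21.1 and 19.9 CPM. Its log2 fold change was −0.64 (SE 0.16), and the 2 guides lay closer to each other than the 2 controls did. In DESeq2 on experiment 1 alone it fell at an adjusted p of 0.00513. Experiment 2 gave −0.74. FAM178B was at 18.2 and 20.8 against 33.6 and 32.4 CPM, and in the same DESeq2 fit its adjusted p was 1.08e-05. CACNA2D3, a subunit of voltage-gated calcium channels, was at 0.898 and 0.572 against 1.84 and 2.53 CPM. ADAMTS4, a protease of the extracellular matrix, was at 0.927 and 1.02 against 1.84 and 1.86 CPM, and TMEM63C, a mechanosensitive ion channel, at 0.898 and 1.12 against 1.94 and 1.77 CPM. TNFRSF18, a TNF receptor family member of lymphocytes, was at 0.842 and 0.424 against 1.49 and 1.52 CPM.

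Of the 27 lower genes, 2 (BNIP3 and PFKFB4) belong to the list of glycolysis and hypoxia genes described further on. MIR210HG, SLC6A8 and PPFIA4 are outside that list and are given beside them as genes of small p among the 27, with no test of a shared theme. BNIP3 (chromosome 10, 131966455 to 131982013), a mitophagy receptor and classic target of hypoxia-inducible factor, was at 25.2 and 16.9 CPM with the guides, against 53.8 and 38.7 CPM. PFKFB4 (chromosome 3, 48517684 to 48562015), an enzyme that sets the pace of glycolysis, was at 24.6 and 19.2 against 48.9 and 34.7 CPM. MIR210HG, the host transcript of the hypoxia microRNA miR-210, was at 2.19 and 2.31 against 5.99 and 4.82 CPM. SLC6A8, the creatine transporter, was at 49.4 and 36.2 against 133 and 72.9 CPM. PPFIA4, a liprin, was at 3.12 and 2.25 against 9.16 and 5.70 CPM. Log2 fold changes of the 5 were −1.14 (SE 0.37), −0.94 (SE 0.36), −1.26 (SE 0.40), −1.27 (SE 0.38) and −1.49 (SE 0.44). DESeq2 on experiment 1 alone called PFKFB4, MIR210HG and PPFIA4, at adjusted p-values of 2.84e-05, 0.00512 and 4.55e-04, and not BNIP3 (0.336) or SLC6A8 (0.698).

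Control 1 was above control 2 in each of those 5 genes. SLC6A8 differed from its controls by −1.27 with all libraries and by −0.77 without control 1. PNCK, a kinase gene that overlaps SLC6A8 on the opposite strand, was at 4.38 and 2.35 against 14.2 and 6.83 CPM. Whether strand was used in counting is not given in the sources used here, so reads of these neighbours cannot be told apart. With the guide number as a block, edgeR called PNCK, SLC6A8 and BNIP3, at adjusted p-values of 0.0203, 0.0207 and 0.0457, all lower. Same-numbered libraries do not share a guide or a source, so that fit pairs them by number only.

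The same 46 genes were looked up in experiment 2, whose libraries the rule did not use. Of the 19 higher genes, 15 were above 0 there, where 50.5% of all tested genes were, and 24 of the 27 lower genes were below 0, where 49.5% of all were. Knockout and control libraries of experiment 2 did not overlap, in the same direction, in 8 of the 19 (11.2% of all tested genes) and 8 of the 27 (12.3% of all). An unadjusted p under 0.05 in the same direction was found there for 3 of the 19 (1.62% of all genes) and for 11 of the 27 (2.98% of all). Among these 11, PFKFB4, ANGPTL4, SH3D21 and SPAG4 overlapped their controls in experiment 2, and the others did not. Controls 1 and 2 there were at 98.2 and 251 CPM for PFKFB4 and at 385 and 922 CPM for SLC6A8. For SPC24 they were close, at 33.5 and 30.1 CPM. The part of control 2 in these p-values was not tested. The median log2 fold change went from 0.83 in experiment 1 to 0.32 in experiment 2 for the higher genes and from −0.82 to −0.60 for the lower ones. Applied to experiment 2 as well, the rule was met a second time by 2 of the 19 higher genes, where 0.134% of all tested genes met it upward, and by 6 of the 27 lower genes, where 0.362% met it downward. Among exceptions, named after their values were seen, ADM was 0.82 higher in experiment 1 and differed by −0.88 in experiment 2. TNFRSF18 and KCNH4 differed by −1.31 and −0.65 in experiment 1 and by 1.09 and 1.33 in experiment 2, TNFRSF18 on levels of 0.0451 to 0.328 CPM.

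**Figure D2:**
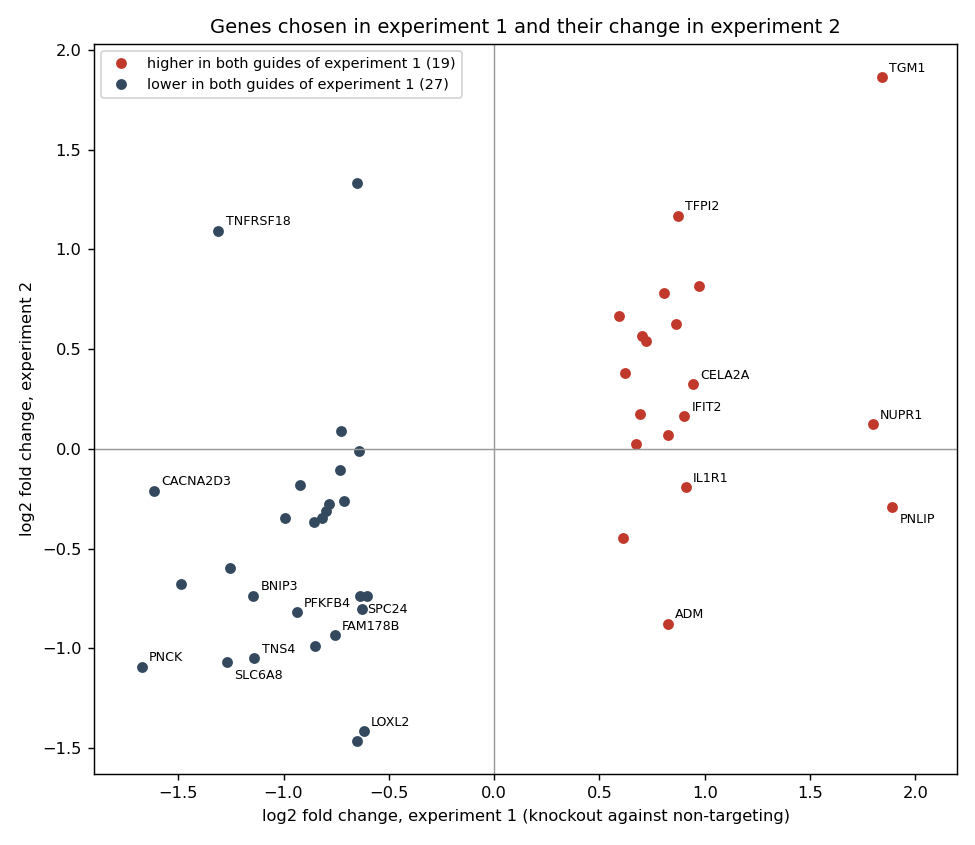
Log2 fold change of the 46 genes in experiment 1 (x axis, which chose them) and experiment 2 (y axis), with genes higher in both guides in red and lower in dark blue. Of the red points 15 of 19 lie above 0 on the y axis, and of the dark points 24 of 27 below 0.

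Programmes were examined next, as lists of genes with the count in each direction and the median beside those of all tested genes. Over all 14898 genes, 50.7% were higher and 49.3% lower, with a median of 0.002. Knockout libraries did not overlap controls in 18.5% of genes in the higher direction and in 17.9% in the lower. No list held a gene past edgeR's threshold (0%), and the DESeq2 calls of all libraries are the 5 genes given above.

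Glycolysis and hypoxia genes lay lower than controls in both guides. Of 33 genes, 30 had a log2 fold change below 0 and 24 had both knockout libraries below both controls, with a median of −0.23. In 28 of the 33 both guides were below the control mean. The median deviation from the control mean was −0.17 with guide 1 and −0.33 with guide 2, and 0.06 and −0.06 in controls 1 and 2. Single genes reached an unadjusted p under 0.05 in 4 cases, all lower.

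Beside BNIP3 and PFKFB4, the list holds transporters, glycolytic enzymes and the factor itself. P4HA1, which hydroxylates collagen prolines, was at 47.5 and 37.6 CPM against 77.3 and 60.1 CPM, and DESeq2 on experiment 1 alone called it at an adjusted p of 5.45e-04. SLC16A3, the lactate exporter, was at 171 and 123 against 201 and 186 CPM. The glucose transporter SLC2A1, named after its values were seen, was at 354 and 388 against 454 and 419 CPM. The abundant enzymes GAPDH, ENO1 and PKM, also named for comparison after their values were seen, differed by −0.15, −0.08 and −0.08. HIF1A, the oxygen-regulated factor that acts on these genes and is controlled mainly as protein, was at 130 and 138 against 131 and 133 CPM. ADM, a vasodilator peptide, had the largest log2 fold change of the 3 genes above 0, at 0.82 (SE 0.89). Its levels were 1.43 and 1.61 against 0.809 and 0.915 CPM.

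**Figure D3:**
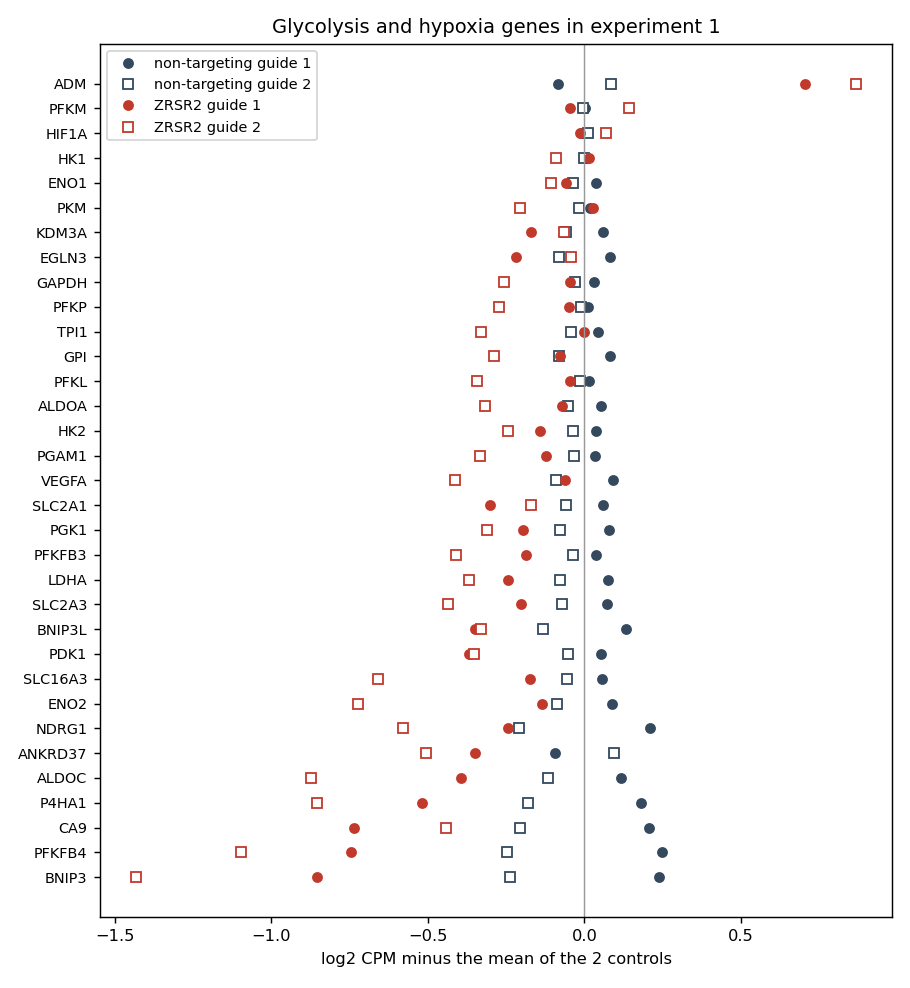
Log2 CPM of 33 glycolysis and hypoxia genes in each library of experiment 1, minus the mean of the 2 controls, ordered by log2 fold change (x axis, log2 units; one row per gene). Red knockout points lie left of 0 for both guides in 28 of 33 genes, with squares (guide 2) farther left than circles (guide 1) in 24.

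The controls also stood apart from each other over this list, more so in experiment 2. In experiment 2 the list had 33 of 33 genes below 0, a median of −0.41 and 17 without overlap. Its median deviations were −0.42 and −0.36 in the knockouts, and −0.35 and 0.35 in the controls, so control 1 of that experiment lay beside the knockouts. BNIP3 was there at 76.4 and 102 CPM against 86.6 and 211 CPM. Without control 1 of experiment 1 the median was −0.17, without control 2 −0.29, without guide 1 −0.33 and without guide 2 −0.16. The part of this control spread in the result was not tested.

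The promoters of BNIP3, MIR210HG, PPFIA4 and P4HA1 are shown because they hold the core of the hypoxia response element, and they were chosen after the values were seen. The first 3 belong to genes lower in both guides. P4HA1 comes from the list and is not among the 27. The letters searched were ACGTG on both strands. The windows run from 250 bases before to 50 after the RefSeq start on GRCh38.p14, on the gene's own strand. Capitals mark each match. The windows of PFKFB4 and SLC6A8, also lower in both guides, held 0 matches and are not shown. CACGTG reads as ACGTG on both strands and is also the E-box of other factors.

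BNIP3 promoter: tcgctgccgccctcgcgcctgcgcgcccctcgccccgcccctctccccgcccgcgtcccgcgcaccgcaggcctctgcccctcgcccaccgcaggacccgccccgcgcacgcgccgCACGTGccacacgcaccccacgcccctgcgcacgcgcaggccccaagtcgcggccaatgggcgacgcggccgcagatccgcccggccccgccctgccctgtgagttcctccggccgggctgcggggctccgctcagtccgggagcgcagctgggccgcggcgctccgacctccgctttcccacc
MIR210HG promoter: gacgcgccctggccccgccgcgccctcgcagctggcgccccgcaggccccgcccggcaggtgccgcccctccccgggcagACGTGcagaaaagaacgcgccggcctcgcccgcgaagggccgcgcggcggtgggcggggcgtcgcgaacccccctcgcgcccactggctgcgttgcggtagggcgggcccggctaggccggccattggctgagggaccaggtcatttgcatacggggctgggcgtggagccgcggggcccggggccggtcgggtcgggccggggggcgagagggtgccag
PPFIA4 promoter: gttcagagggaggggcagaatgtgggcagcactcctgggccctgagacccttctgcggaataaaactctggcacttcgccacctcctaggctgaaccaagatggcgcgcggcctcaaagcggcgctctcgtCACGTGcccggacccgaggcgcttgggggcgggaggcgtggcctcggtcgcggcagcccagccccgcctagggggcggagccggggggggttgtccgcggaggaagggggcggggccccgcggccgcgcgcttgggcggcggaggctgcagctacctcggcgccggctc
P4HA1 promoter: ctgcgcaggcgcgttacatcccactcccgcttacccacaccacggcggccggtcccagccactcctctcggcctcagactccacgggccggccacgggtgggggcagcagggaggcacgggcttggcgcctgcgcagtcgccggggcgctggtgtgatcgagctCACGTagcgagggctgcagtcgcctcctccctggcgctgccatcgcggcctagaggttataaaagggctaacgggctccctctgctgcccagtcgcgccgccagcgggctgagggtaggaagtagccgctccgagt

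They lie at chr10:131981874-131982173 (minus strand), chr11:568408-568707 (minus), chr1:203026241-203026540 (plus) and chr10:73096817-73097116 (minus). The first matched base lies 134, 170, 119 and 86 bases before the start. Of the 33 listed genes, 29 had a promoter in the table and 12 of these held the letters (41.4%), against 21.6% of all 27305 promoters. A share above that of all promoters was not particular to this list. The letters were in 6 of 12 promoters of YAP and TEAD targets and in 9 of 20 of genes with minor introns. Other lists had a lower share than all promoters, such as collagen and laminin genes with 1 of 18. Of the 27 genes lower in both guides, 23 had one and 5 held the letters (21.7%), and of the 19 higher genes 3 of 13. A match is a description of the letters, not of a bound site.

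Genes of the unfolded protein response and of ATF4 were higher with both guides. These pathways sense misfolded protein in the endoplasmic reticulum and shortage of amino acids, and raise chaperones, amino acid transporters and synthetic enzymes. Of 32 genes, 30 were above 0 and 23 had both knockout libraries above both controls, with a median of 0.16. No gene had both knockout libraries below both controls. The median deviation was 0.10 with guide 1 and 0.21 with guide 2, against 0.00 in each control, and 5 genes had an unadjusted p under 0.05, all higher.

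The 3 largest log2 fold changes of the list were those of CHAC1, SLC7A11 and PSAT1. SLC7A11, the cystine importer, was at 19.1 and 31.2 CPM with guides 1 and 2, against 16.1 and 16.2 CPM in the controls, and differed by 0.64 (SE 0.21) on the log2 scale. PSAT1, an enzyme of serine synthesis, was at 61.2 and 82.2 against 48.0 and 52.5 CPM, and DESeq2 on experiment 1 alone called it at an adjusted p of 0.0372. CHAC1, which degrades glutathione and was named after its values were seen, was at 11.6 and 18.5 against 8.22 and 10.03 CPM. DDIT4, a stress-induced inhibitor of mTORC1, was at 110 and 149 against 94.0 and 96.3 CPM. HERPUD1, a membrane protein of the disposal of misfolded proteins, was at 38.5 and 47.1 against 30.7 and 33.0 CPM, with an unadjusted p of 0.00471. ATF4 itself was at 426 and 464 against 381 and 401 CPM. The chaperone HSPA5 was at 1116 and 1354 against 1079 and 1061 CPM, so guide 1 lay close to the controls. In each of these genes guide 2 lay above guide 1.

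**Figure D4:**
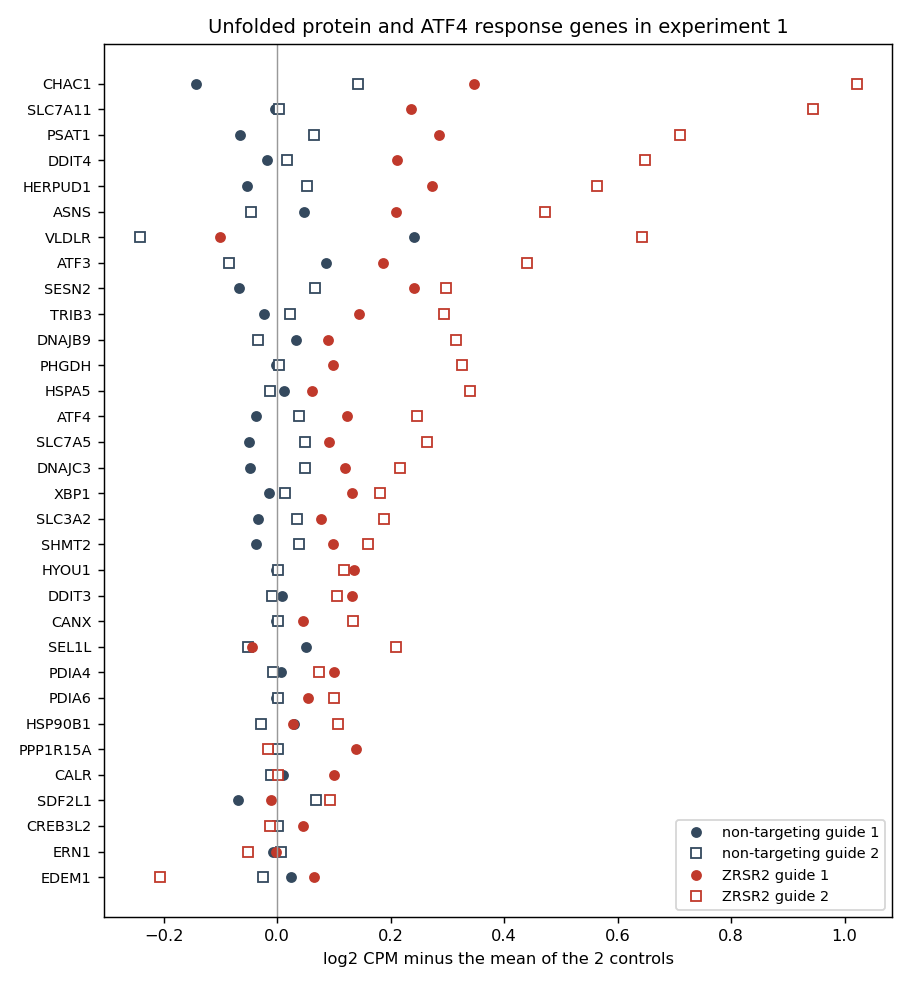
Log2 CPM of 32 unfolded protein and ATF4 response genes in each library of experiment 1, minus the mean of the 2 controls (x axis, log2 units; one row per gene, ordered by log2 fold change). Both knockout points lie right of both controls in 23 of 32 genes, with guide 2 (red squares) above guide 1 (red circles) in 24.

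In experiment 2 the same list had 13 genes higher and 19 lower, with a median of −0.06. Without overlap there were 1 in the higher direction and 4 in the lower, beside 11.2% and 12.3% of all tested genes. The list's median deviations there were −0.004 with guide 1 and −0.010 with guide 2, between the controls at 0.11 and −0.11. For single genes the difference between experiments had an unadjusted p under 0.05 in 4 of the 32, and none passed in either tool. DDIT4 had the smallest, at 0.00257, being 0.45 higher in experiment 1 and at −0.40 in experiment 2. Leaving out 1 library left the median of experiment 1 between 0.11 (without guide 2) and 0.22 (without guide 1).

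The HSPA5 promoter is given as the textbook case of the endoplasmic reticulum stress element, searched on both strands as CCAAT, a spacer of 9 bases of any kind and CCACG. Capitals mark the match.

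HSPA5 promoter: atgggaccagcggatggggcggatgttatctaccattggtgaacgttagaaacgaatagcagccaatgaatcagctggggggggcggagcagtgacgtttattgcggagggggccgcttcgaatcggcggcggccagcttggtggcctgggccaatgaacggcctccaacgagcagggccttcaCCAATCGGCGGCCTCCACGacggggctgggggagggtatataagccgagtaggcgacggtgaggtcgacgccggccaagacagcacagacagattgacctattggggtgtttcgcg

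It lies at chr9:125241294-125241593 on the minus strand, with the element 66 bases before the start. Of 30 promoters of the list, 5 held the element (16.7%), against 22 of all 27305 (0.0806%). The list names genes of this response and the element was chosen after the data were seen. That share describes the list and is not a result of experiment 1. None of the 13 promoters of the genes higher in both guides and none of the 23 of the lower genes held it. The amino acid response element of ATF4, searched as TGATGNAAT, was in 0 of the 30 and in 1.02% of all promoters, which says only that these letters are not in those windows.

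ERK output genes, the immediate targets of growth factor signalling, were lower with guide 2 and near the controls with guide 1. Of 24 genes, 20 were below 0 and 11 did not overlap in that direction, with a median of −0.17. The median deviation was −0.04 with guide 1 and −0.36 with guide 2, beside 0.04 and −0.04 in the controls. EGR1, an early-response factor named after its values were seen, was at 105 CPM with guide 1 and 53.2 CPM with guide 2, against 119 and 85.9 CPM. FOS, chosen the same way, was at 14.7 and 5.87 against 13.4 and 9.97 CPM. CCND1, cyclin D1, was alike in both guides at 70.2 and 67.3 CPM, against 84.0 and 81.1 CPM, with an unadjusted p of 0.0435. SPRY4, a feedback inhibitor of the pathway, was at 1.97 and 1.17 against 2.43 and 2.23 CPM, and IER2, an immediate early gene, at 225 and 173 against 259 and 238 CPM. The median was −0.03 without guide 2, −0.35 without guide 1 and −0.09 without control 1. Experiment 2 gave 11 genes of this list higher and 13 lower, with a median of −0.05.

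Inflammatory genes of the interleukin-1 and NF-kB pathways did not move as a group with IL1R1. Of 33 genes, 13 were higher and 20 lower, with a median of −0.03, and guide 1 lay at 0.05 and guide 2 at −0.09. In experiment 2, 12 were higher and 21 lower, with a median of −0.08. CCL2, a monocyte-attracting chemokine, was at 8.06 and 5.79 CPM against 11.7 and 10.3 CPM, with a log2 difference of −0.68 (SE 0.20). IL18, a cytokine of the interleukin-1 family, was at 7.22 and 6.65 against 5.18 and 5.70 CPM. LIF, a cytokine chosen after its values were seen, was at 357 CPM with guide 1 and 129 CPM with guide 2, against 357 and 312 CPM. Without the guide 1 library, LIF passed edgeR's threshold.

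Interferon-stimulated genes, of which IFIT2 is one, showed small values. Of 48 genes, 34 were above 0 and 16 did not overlap in that direction, with a median of 0.02. IFIT2 had the largest log2 fold change of the 48. OASL, an antiviral protein, was at 6.15 and 6.93 CPM against 4.76 and 4.67 CPM, with a log2 difference of 0.48 (SE 0.20). GBP1, a guanylate-binding protein, was at 178 and 155 against 188 and 196 CPM. In experiment 2 the list had 35 of 48 above 0 and a median of 0.13. The interferon response element, searched on both strands as GAAA, 2 bases of any kind and GAAA, was in 23 of 37 promoters of the list (62.2%) and in 3.65% of all. That share describes the list and is not a result of experiment 1. IFIT2 and OASL had no promoter among those searched. The element was in 1 of 13 promoters of the genes higher in both guides (7.69%) and in 0 of 23 of the lower genes.

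Mitosis genes were slightly lower in both guides. Of 32 genes, 30 were below 0 and 16 did not overlap in that direction, but the median was −0.07, with −0.07 for guide 1, −0.09 for guide 2 and −0.03 and 0.03 in the controls. Apart from SPC24, none reached an unadjusted p under 0.05. AURKA, a spindle pole kinase, was at 74.2 and 68.9 CPM against 81.7 and 84.2 CPM, and PLK1, a kinase of mitotic entry, at 202 and 175 against 205 and 222 CPM. The other parts of the NDC80 complex, chosen because SPC24 belongs to it, differed by −0.07 (NDC80), 0.01 (NUF2) and −0.03 (SPC25). DNA replication genes had a median of −0.004, with 16 of 34 higher. The mitosis list of experiment 2 had 28 of 32 genes lower and a median of −0.10, and the replication list had 25 of 34 higher and a median of 0.06.

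Among the proteins of the minor spliceosome, to which ZRSR2 belongs, both directions were present. Of 15 genes, 9 were higher and 6 lower, 6 (40%) and 4 (26.7%) of them without overlap, with a median of 0.06 and ZRSR2 as the one gene at an unadjusted p under 0.05. The lowest log2 fold change was that of SCNM1, named after its values were seen, at −0.61 (SE 0.52) on levels of 0.337 and 0.339 CPM against 0.421 and 0.610 CPM. CCDC84 was at 12.4 and 16.4 CPM against 12.6 and 12.01 CPM, and RNPC3, which binds the minor spliceosomal RNAs, at 5.03 and 5.40 against 6.08 and 6.10 CPM. Among 26 genes with minor introns, recalled from general knowledge, 11 were higher and 15 lower, with a median of −0.03. VPS16, of vesicle sorting, was at 35.7 and 28.1 against 39.5 and 44.4 CPM (unadjusted p 0.0193). TRAPPC2, of vesicle transport, was at 28.9 and 24.2 against 30.2 and 32.5 CPM.

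Of 24 megakaryocyte and platelet genes, 18 were higher and 6 lower, with a median of 0.08, and 9 (37.5%) did not overlap in the higher direction. In experiment 2 there were 7 higher and 17 lower, with a median of −0.09. Without overlap there were 7 in the lower direction and 1 in the higher, beside 12.3% and 11.2% of all tested genes. The list's median deviations there were −0.12 with guide 1 and −0.04 with guide 2, between controls 1 and 2 at −0.14 and 0.14. PF4 was at 1.83 and 3.03 CPM against 1.46 CPM in both controls. THBS1, an adhesive platelet glycoprotein, was at 238 and 253 against 209 and 197 CPM, and GP1BA, part of the von Willebrand factor receptor, at 94.7 and 94.3 against 110 and 106 CPM. Lineage transcription factors had a median of −0.01 over 18 genes.

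**Figure D5:**
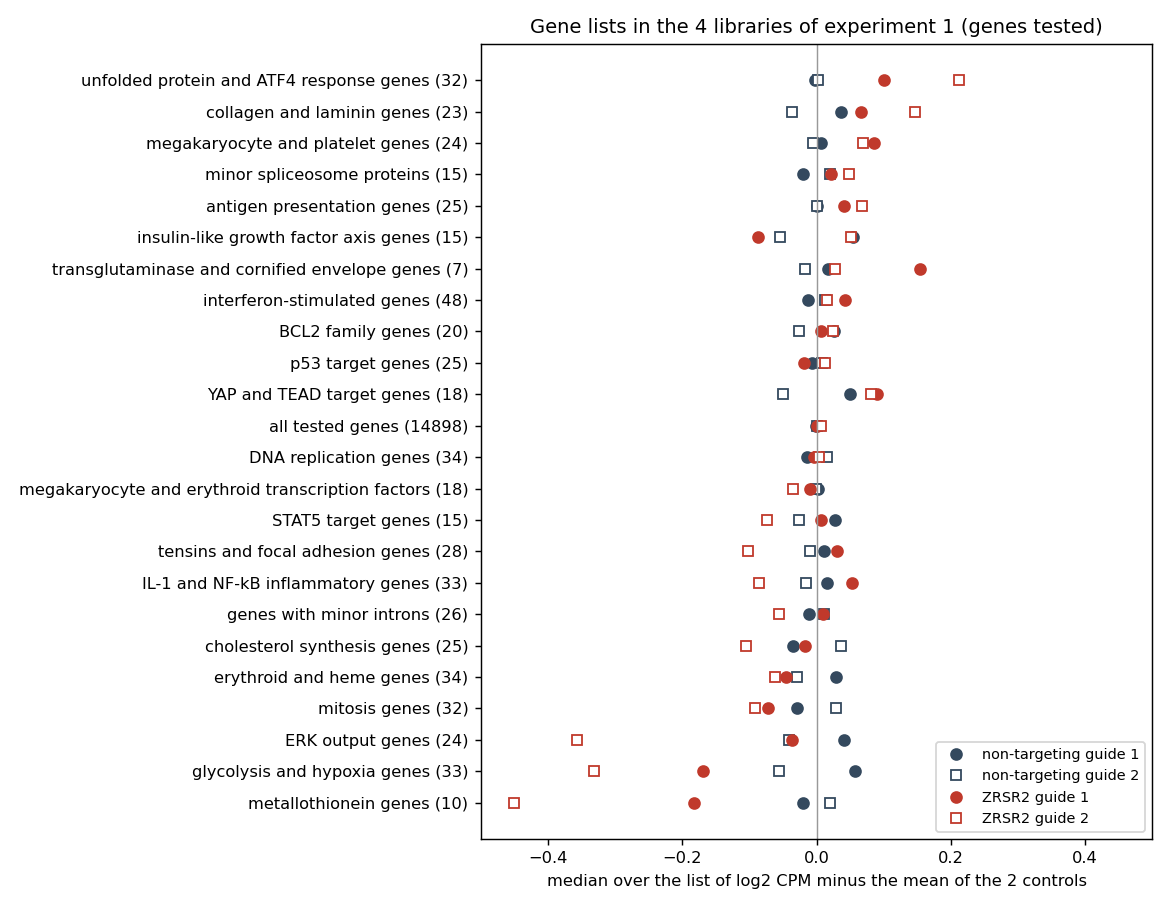
Median over each gene list of log2 CPM minus the mean of the 2 controls (x axis, log2 units), in the 4 libraries of experiment 1, with the number of genes tested in parentheses and lists ordered by their median log2 fold change. For glycolysis and hypoxia genes the knockouts lie at −0.17 and −0.33 and the controls at 0.06 and −0.06; for unfolded protein and ATF4 genes the knockouts lie at 0.10 and 0.21.

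The remaining genes that DESeq2 called on experiment 1 alone were nearer to the controls than 1.5-fold in at least one guide. Among those higher, LTBP1, which holds latent TGF-beta in the matrix, was at 85.2 and 98.6 CPM against 67.4 and 65.5 CPM. MMP2, a matrix metalloproteinase, was at 57.0 and 63.9 against 41.1 and 43.7 CPM, and in experiment 2 it differed by 0.44. KIAA0556, a protein of the ciliary base, was at 42.1 and 47.7 against 32.5 and 32.0 CPM, and PLXDC2, a membrane protein, at 24.3 and 24.8 against 15.7 and 17.4 CPM.

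Among those lower, WNT11, a secreted Wnt ligand, was at 57.1 and 45.0 CPM against 74.8 and 73.0 CPM. KIF19, a kinesin of cilia, was at 35.9 and 32.6 against 50.2 and 47.8 CPM. PLVAP, a protein of vascular diaphragms, was at 175 and 150 against 214 and 205 CPM, and RASIP1, a regulator of vessel formation, at 12.1 and 9.88 against 17.0 and 17.1 CPM. ZPR1, a zinc finger protein, was at 79.3 and 69.8 against 104 and 107 CPM. ACTL6A, a subunit of chromatin remodelling complexes, was at 71.1 and 64.8 against 87.0 and 88.3 CPM, and FKBP3, a prolyl isomerase, at 33.9 and 32.6 against 42.3 and 47.8 CPM. DESeq2 adjusted p-values of these 11 ran from 2.74e-04 (ZPR1) to 0.0427 (RASIP1), and edgeR gave 1.00 for all.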

How the data were processed

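Per the labels, RNA from SET-2 cells was taken with a column kit and made into libraries with a Kapa mRNA kit. The authors deposited expected counts, 1 value per gene symbol and library, made with cutadapt 1.11, RSEM 1.2.30 and hg19, per the submitters' processing notes. Aligner, annotation and use of strand are not given in the sources used here. RSEM splits reads that fit several genes by probability, so near-identical genes are uncertain. The expected counts were whole, so rounding changed none.

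Of 25435 symbols, edgeR's filterByExpr on genotype kept 14898. One quasi-likelihood fit (edgeR 4.0.16, R 4.3.3, TMM, legacy = FALSE) held 4 cells of genotype by experiment over all 8 libraries, and adjustment ran over all tested genes at 0.05. CPM use TMM-scaled library sizes, and log2 CPM a prior count of 2. DESeq2 1.42.0 was an alternative, with other filters, scaling, libraries left out and thinning to the smallest total. Both fits were tested on simulated data. The members and gene lists were chosen with earlier results of these data known. Named genes were ZRSR2, the 5 given markers, the 12 of smallest p per direction among genes moved in both guides, DESeq2 calls and up to 3 of smallest p per list. Of these, 1 is not reported here. Motifs other than the interferon and AP-1 elements were chosen after the data were seen. Gene positions come from GENCODE 29, promoters from RefSeq, both GRCh38, not the authors' build. Floors cover counting error only.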

Additional observations from a re-analysis of the deposited data

How the results depend on the processing

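The count of genes called in experiment 1 was 0 with edgeR under DESeq2-type size factors, no count filter, at least 10 counts in every library, legacy = TRUE, experiment 1 alone and thinning to the smallest total. It was 3 with the guide number as a replicate block, 5 with DESeq2, 25 with DESeq2 on experiment 1 alone and 0 to 2 over the fits that left out one library, the 2 being IGFBP5 and LIF without knockout guide 1. ZRSR2 differed by −0.56 past the threshold in DESeq2 on experiment 1 alone, and by −0.75 to −0.38 when a library was left out. The difference between experiments had 0 calls in every alternative run. Deviations of same-numbered libraries correlated over genes at −0.03 in experiment 1 and 0.19 in experiment 2. The labels tie no 2 libraries of the same number to a shared source.

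Genes moved in both guides numbered 7 at 2-fold, 13 at a mean of 5 CPM, 5428 with no fold minimum, and 55 to 454 with a library left out; after thinning, chosen after seeing the data, there were 41, of which 33 were among the 46. Of 1692 values under alternatives, 1603 kept direction and side or stayed near the main value. Leaving out 1 library gave both signs in 12 genes: AZU1 −0.705 to 0.130, CD4 −0.112 to 0.0883, CR2 −0.0823 to 0.369, EPCAM −0.715 to 0.0161, F13A1 −0.106 to 1.37, GATA2 −0.371 to 0.0545, KRT18 −0.332 to 0.0442, KRT8 −0.0486 to 0.295, LTF −1.91 to 0.427, NKG7 −0.106 to 0.210, PPL −0.875 to 0.0666 and VCAN −0.0447 to 0.674; the cause was not tested. A library left alone in its group is assumed to vary like the other groups. With 2 libraries a side, a change in 1 guide and not in the other cannot be told from a change in 1 culture.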

Other observations

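Several further lists held values that no comparison above describes. The list of metallothioneins, small proteins that bind zinc and copper, also holds MTF1 and SLC30A1, which are not metallothioneins. Of its 10 tested genes 8 were lower, with a median of −0.29, −0.18 with guide 1 and −0.45 with guide 2. In the lower direction 7 (70%) did not overlap, beside 17.9% of all tested genes. MT1E was at 15.8 and 15.6 CPM against 21.1 and 20.5 CPM, MT1G at 11.9 and 7.95 against 13.7 and 14.1 CPM, and MT1H at 0.814 and 0.551 against 1.17 and 1.37 CPM. These near-identical copies can share reads. In experiment 2 the list had a median of −0.22. Collagen and laminin genes were higher in 16 of 23, with a median of 0.12 and 4 genes at an unadjusted p under 0.05. COL6A2 was at 9.15 and 9.92 CPM against 7.41 and 6.59 CPM, and COL6A1 at 2.72 and 5.42 against 2.78 and 2.07 CPM, so guide 1 lay within its controls. In experiment 2 the list's median was −0.09.

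Antigen presentation genes were higher in 18 of 25, with a median of 0.05 and 13 without overlap. In experiment 2 there were 8 higher and 17 lower, with a median of −0.09. Without overlap there were 0 in the higher direction and 1 in the lower, beside 11.2% and 12.3% of all tested genes. The list's median deviations there were 0.01 with guide 1 and −0.16 with guide 2, between the controls at 0.21 and −0.21. HLA-DPA1, a class II chain, was at 220 and 267 CPM against 205 and 202 CPM. Erythroid and heme genes were lower in 22 of 34, with a median of −0.04 and 11 without overlap, and in experiment 2 in 31 of 34, with a median of −0.19. SLC4A1, the red cell anion exchanger, was at 47.9 and 42.7 against 59.8 and 54.0 CPM. Cholesterol synthesis genes were lower in 21 of 25 with a median of −0.04, and higher in 22 of 25 in experiment 2 with a median of 0.07. PAPPA, a protease that frees insulin-like growth factors, was at 49.1 and 57.9 against 42.8 and 37.0 CPM. STAT5 targets had 5 of 15 higher with a median of −0.02, p53 targets 14 of 25 with 0.01, BCL2 family genes 13 of 20 with 0.02, YAP and TEAD targets 9 of 18 with 0.01, and transglutaminase and cornified envelope genes 5 of 7 with 0.04. The AP-1 element, searched as TGANTCA, was in 1 of 15 promoters of the ERK output genes and in 7.76% of all promoters. Among genes moved in both guides it was in 3 of 13 promoters of the higher ones (23.1%) and in 1 of 23 of the lower ones (4.35%).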
